A study of Mus musculus with 4 samples.

Results

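The genes described here encode the signalling parts of the T cell receptor and its coreceptors: the CD3 chains Cd3e (Gene ID 12501), Cd3d (12500) and Cd3g (12502), the zeta chain Cd247 (12503), the kinases Lck (16818) and Zap70 (22637), the adaptor Lat (16797), and the coreceptors Cd4 (12504), Cd8a (12525) and Cd8b1 (12526). They were taken by symbol, and all 10 of 10 had a line in each of 4 RNA sequencing libraries, among 17008 genes with a read in any library. The libraries were labelled as sorted macrophages of C57BL/6J mice aged 6 to 8 weeks at transplant: T-ALL bone marrow and T-ALL spleen at day 21, and normal bone marrow and normal spleen at day 0. T-ALL is T cell acute lymphoblastic leukaemia. The leukaemia mice had been given GFP-positive leukaemia cells from other leukaemia mice without irradiation, which leaves the blood cells of the host in place. The labels do not say which markers were sorted on, how many mice went into a library, or which oncogene or clone drove the leukaemia. With 1 library in each group, differences between groups are described without a replicate check or a p-value.

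A T cell recognises peptide on MHC molecules with 2 variable receptor chains, which carry no signalling part of their own. The CD3 chains and the zeta chain bring the receptor to the cell surface and hold the tyrosines that Lck phosphorylates. Zap70 binds these tyrosines and in turn phosphorylates Lat, on which the downstream signalling proteins gather. CD4 and CD8, which bind MHC class II and class I, carry Lck to the receptor. Developing thymocytes pass through a stage with both coreceptors, mature T cells keep CD4 or CD8, and T-ALL arises from developing T cells. Outside T cells, mouse dendritic cell subsets can carry CD4 or the CD8 alpha chain, NK cells use the zeta chain, Lck, Zap70 and Lat, and mast cells and platelets use Lat.

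Levels are CPM (reads of a gene scaled to a library of 1000000 reads, on TMM-scaled library sizes) unless RPKM, which also divides by gene length, is named. Ratios of CPM are followed by their exact binomial 95% interval, which covers counting error only. The words higher and lower are used of levels for genes that passed a size rule: a 2-fold difference on the log2(CPM + 1) scale, and a level of 10 CPM or more in at least 1 of the compared libraries. A gene that reached that level is called measured. Where a gene did not pass, its ratio is given as a value. Totals rounded to 1000 reads ran from 8979000 to 9810000, so that 1 read was worth 0.101 to 0.112 CPM. Of 12 macrophage genes, 12 had reads in every library, and their summed level was 8860 CPM in T-ALL bone marrow, 3034 in normal bone marrow, 6043 in T-ALL spleen and 9555 in normal spleen. The most abundant of the 12 held 5494, 2572, 1421 and 2415 CPM of these sums, in the same order. Most of each bone marrow sum thus came from a single gene, and the sums do not rank the libraries by macrophage content. Csf1r, the growth factor receptor of macrophages, was highest in normal spleen (2415 CPM) and lowest in normal bone marrow (133 CPM). Xist, made from the silenced X in females, had 6 reads in T-ALL bone marrow, 8485 in normal bone marrow, 3846 in T-ALL spleen and 7588 in normal spleen, while the Y-linked Ddx3y had 874, 0, 532 and 0 reads in the same order, so sex-linked transcripts differed between T-ALL and normal libraries and between the T-ALL libraries. The receptor genes were thus read in libraries that hold reads of macrophage genes beside those of other cell types, and in such bulk libraries fewer cells of a type and less RNA per cell cannot be told apart.

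The 3 CD3 genes are shown by their upstream sequence because they lie next to each other (Cd3g, Cd3d, Cd3e in the order of the RefSeq gene table). Lck is shown because it stood highest of the set per length in both T-ALL libraries, as it also did in normal bone marrow. The sequences are the 250 bases before the start listed in RefSeq for the GRCm38.p6 build, 5′ to 3′ on the gene's strand. Capitals mark AGGAAG or its reverse complement CTTCCT, a core of the sites of ETS factors.
Cd3e, chr9:45009612-45009861, minus strand: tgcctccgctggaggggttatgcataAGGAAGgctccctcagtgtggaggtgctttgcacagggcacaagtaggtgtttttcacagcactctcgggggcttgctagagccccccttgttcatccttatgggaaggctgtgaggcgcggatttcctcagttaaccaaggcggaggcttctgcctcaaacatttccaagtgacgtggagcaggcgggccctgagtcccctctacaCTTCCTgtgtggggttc
Cd3d, chr9:44981536-44981785, plus strand: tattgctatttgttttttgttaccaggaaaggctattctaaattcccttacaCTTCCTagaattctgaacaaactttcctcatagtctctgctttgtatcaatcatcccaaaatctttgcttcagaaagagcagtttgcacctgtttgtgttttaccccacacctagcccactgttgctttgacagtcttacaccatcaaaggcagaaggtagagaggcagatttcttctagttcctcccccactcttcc
Cd3g, chr9:44980432-44980681, minus strand: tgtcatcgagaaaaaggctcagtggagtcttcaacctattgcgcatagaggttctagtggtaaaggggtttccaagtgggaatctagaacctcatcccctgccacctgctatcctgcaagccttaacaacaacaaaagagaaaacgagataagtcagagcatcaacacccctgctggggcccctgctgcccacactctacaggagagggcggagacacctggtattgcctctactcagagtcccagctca
Lck, first listed start, chr4:129573642-129573891, minus strand: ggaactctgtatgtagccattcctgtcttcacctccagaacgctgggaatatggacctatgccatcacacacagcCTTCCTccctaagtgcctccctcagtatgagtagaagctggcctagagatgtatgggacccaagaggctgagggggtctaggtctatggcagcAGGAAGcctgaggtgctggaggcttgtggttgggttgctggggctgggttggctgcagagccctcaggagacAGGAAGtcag
Cd3e held this motif at 2 places, Cd3d at 1, Lck at 3 before its first listed start and Cd3g at 0. Another listed start of Lck, not printed, held it at 1 place. As a check, bases just after each start were sought in annotated transcripts of the gene. They were found in 1 transcript for the printed Lck start and in 3 for the other. For Cd3d they were in 1, for Cd3g in 2 and for Cd3e in 0, so the Cd3e start lacks this backing. Upstream sequences were matched for 8 of the 10 genes (not Cd4 and Cd8b1), and 6 of these 8, taken at the first listed start, held AGGAAG on either strand, against 29.5% of 32851 upstream sequences of all genes. The other motifs searched on both strands, with overlaps allowed, were TGTGGT (RUNX), in 1 of the 8 and 14.0% of all, AGATAA, of the factors related to Gata3, in 1 and 9.99%, CTTTGA (TCF/LEF), in 2 and 13.8%, CANNTG (E-box), in 7 and 66.2%, and TATAAA (the binding site of TBP), in 0 and 12.4%. A match is a run of letters in these windows, and no binding was measured here.

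In bone marrow, the CD3 chains, the zeta chain, both kinases, the adaptor and Cd4 were all higher in the T-ALL library, by 2.56-fold to 6.40-fold. Of the 8 genes that reached 10 CPM, 8 were called higher and 0 lower, against 8.01% of the 9716 genes measured that were higher and 1.03% that were lower. Their median log2 difference was 1.68, that of all genes measured -0.04. The remaining pair, Cd8a and Cd8b1, stayed below 10 CPM in both bone marrow libraries.

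In spleen, the T-ALL library was higher for 6 of the 7 signalling genes and for none of the coreceptors. Of 10 genes measured, 6 were called higher (Cd3e, Cd3d, Cd247, Lck, Zap70 and Lat) and 1 lower (Cd8a), against 10.3% and 11.0% of the 9774 genes measured. The median log2 difference of the 10 genes was 1.20, that of all genes measured -0.08. Lck, Lat and Zap70 differed most, by 3.58-fold to 4.06-fold, whereas Cd4 was at nearly the same level in both spleens.

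**Figure D1:**
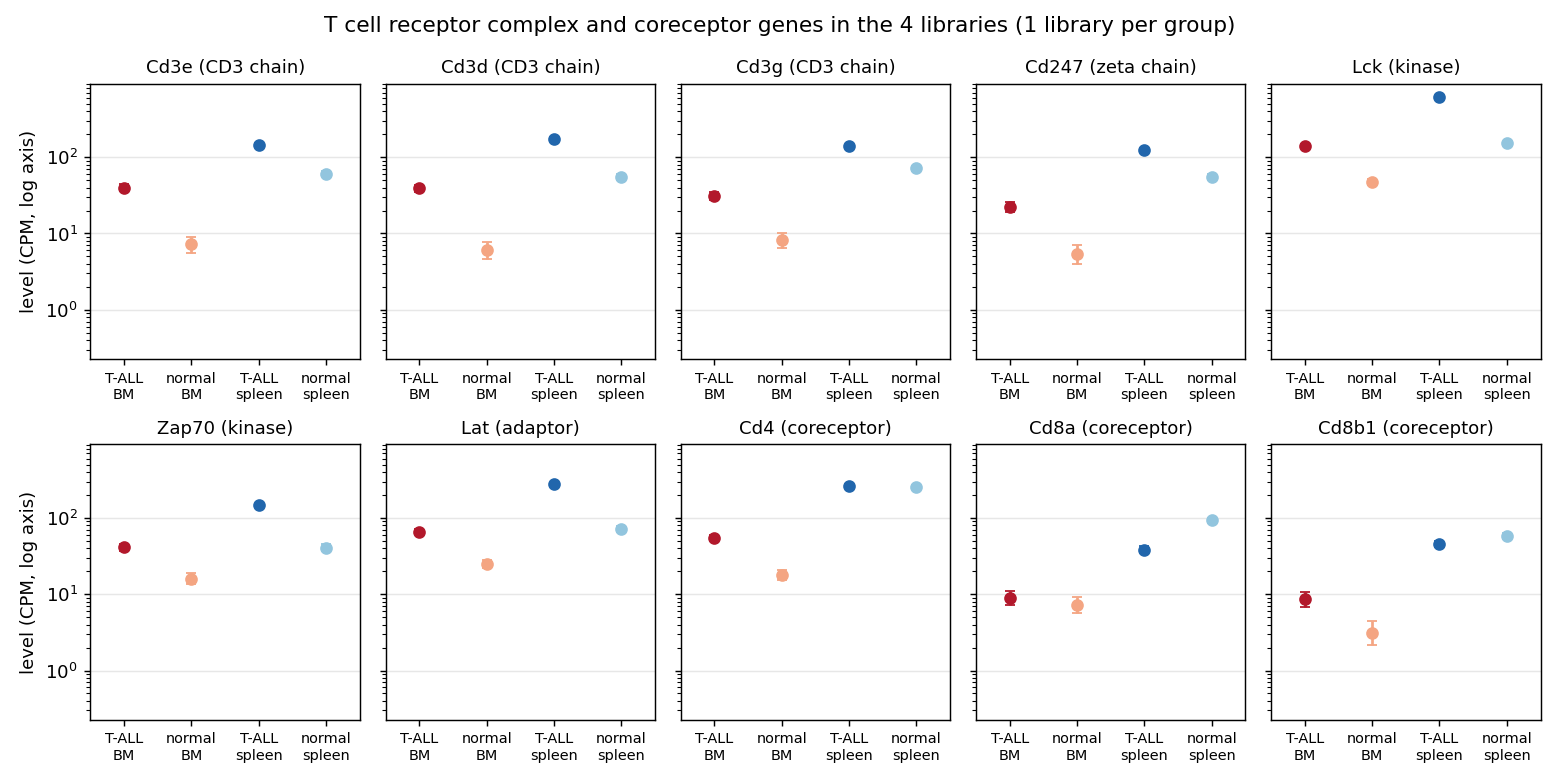
Level in CPM (log axis) of the 10 genes in the 4 libraries, 1 point per library; bars are Poisson 95% intervals of the read count. Apart from Cd8a and Cd8b1, each gene was highest in T-ALL spleen, and Cd4 was nearly as high in normal spleen (264 and 256 CPM).

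The 3 CD3 chains form the dimers that flank the receptor. Cd3e, the epsilon chain shared by both dimers, was at 39.7 CPM in T-ALL bone marrow, against 7.20 CPM in normal bone marrow, and at 146 CPM in T-ALL spleen and 61.0 CPM in normal spleen. It was 5.51-fold higher (4.27 to 7.21) with T-ALL in bone marrow and 2.39-fold higher (2.16 to 2.64) in spleen. The T-ALL library was the higher in each organ, and T-ALL bone marrow still lay below normal spleen. Cd3d, the delta chain, was at 39.0 and 6.09 CPM in T-ALL and normal bone marrow, and at 172 and 55.7 CPM in T-ALL and normal spleen. It had the largest ratio of the set in bone marrow, 6.40 (4.86 to 8.56), and 3.10 (2.80 to 3.43) in spleen. Cd3g, the gamma chain, was at 31.3 and 8.22 CPM in T-ALL and normal bone marrow, and at 138 and 71.9 CPM in T-ALL and normal spleen. Its bone marrow ratio was 3.81 (2.97 to 4.94), and in spleen its ratio of 1.92 (1.75 to 2.12) lay just under 2-fold. Per Cd3e read, the intervals of the other CD3 chains did not overlap between the spleens. The bone marrow intervals overlapped, which does not show that the proportions were equal there. Cd3g had 0.789 reads per Cd3e read (0.675 to 0.923) in T-ALL bone marrow and 1.14 (0.819 to 1.59) in normal bone marrow. The same ratio was 0.95 (0.879 to 1.03) in T-ALL spleen and 1.18 (1.05 to 1.32) in normal spleen. Cd3d had 1.19 reads per Cd3e read (1.10 to 1.28) in T-ALL spleen and 0.914 (0.808 to 1.03) in normal spleen.

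Cd247 encodes the zeta chain, which holds the most signalling motifs of the complex. It was at 22.3 CPM in T-ALL bone marrow, against 5.38 CPM in normal bone marrow, 4.15-fold higher (3.06 to 5.72). In spleen it was at 124 CPM in the T-ALL library and 55.0 CPM in the normal library, 2.25-fold higher (2.03 to 2.51). Reads covered little of its listed length of 2957 bases, with 18.1% in T-ALL bone marrow, 14.5% in normal bone marrow, 20.9% in T-ALL spleen and 18.4% in normal spleen. In T-ALL spleen, 1847 genes had at least the 1146 reads of Cd247, and 1 of them, Cd247 itself, was covered to this extent or less, against a median coverage of 98.2%. Its RPKM is divided by the whole listed length and is given here with that limit.

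The kinases and the adaptor differed more in spleen than the chains they serve. Lck, the kinase that starts receptor signalling, was at 140 CPM in T-ALL bone marrow, against 47.5 CPM in normal bone marrow, 2.94-fold higher (2.64 to 3.27). In spleen it reached 615 CPM in the T-ALL library, from 5678 reads, against 151 CPM in the normal library, 4.06-fold higher (3.82 to 4.31). Zap70, the kinase that binds the phosphorylated chains, was at 41.0 and 16 CPM in T-ALL and normal bone marrow, and at 146 and 40.8 CPM in T-ALL and normal spleen. Its ratios were 2.56 (2.12 to 3.10) in bone marrow and 3.58 (3.19 to 4.03) in spleen, and the T-ALL bone marrow and normal spleen libraries stood at almost the same level. Lat, the adaptor phosphorylated by Zap70, was at 66.1 and 25.0 CPM in T-ALL and normal bone marrow, and at 277 and 71.6 CPM in T-ALL and normal spleen, with ratios of 2.65 (2.28 to 3.08) and 3.87 (3.55 to 4.23).

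The coreceptors moved apart from the chains and from each other. Cd4 was at 54.2 CPM in T-ALL bone marrow, against 17.9 CPM in normal bone marrow, 3.04-fold higher (2.55 to 3.62). In spleen it was at 264 CPM in the T-ALL library and 256 CPM in the normal library, a ratio of 1.03 whose interval (0.972 to 1.09) holds 1. Cd8a, the alpha chain of CD8, was at 9.01 and 7.20 CPM in T-ALL and normal bone marrow, from 84 and 71 reads, and the interval of that ratio (0.902 to 1.74) holds 1. In spleen Cd8a was at 38.5 CPM in the T-ALL library and 92.6 CPM in the normal library, 2.40-fold lower (2.12 to 2.73). Cd8b1, the beta chain found with the alpha chain on most CD8 T cells, was at 8.59 and 3.15 CPM in T-ALL and normal bone marrow, from 80 and 31 reads, a ratio of 2.73 (1.78 to 4.28). In spleen it was at 45.9 CPM in the T-ALL library and 57.5 CPM in the normal library, a ratio of 0.798 (0.700 to 0.910), under 2-fold. The CD8 chains thus differed in step with neither Cd3e nor each other. Cd8b1 had 0.952 reads per Cd8a read (0.692 to 1.31) in T-ALL bone marrow and 0.437 (0.277 to 0.675) in normal bone marrow, and 1.19 (1.03 to 1.38) in T-ALL spleen and 0.621 (0.555 to 0.694) in normal spleen. Cd4 had 6.01 reads per Cd8a read (4.76 to 7.67) in T-ALL bone marrow and 2.48 (1.87 to 3.31) in normal bone marrow. In spleen there were 6.85 (6.12 to 7.67) in the T-ALL library and 2.77 (2.56 to 3.0) in the normal library.

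**Figure D2:**
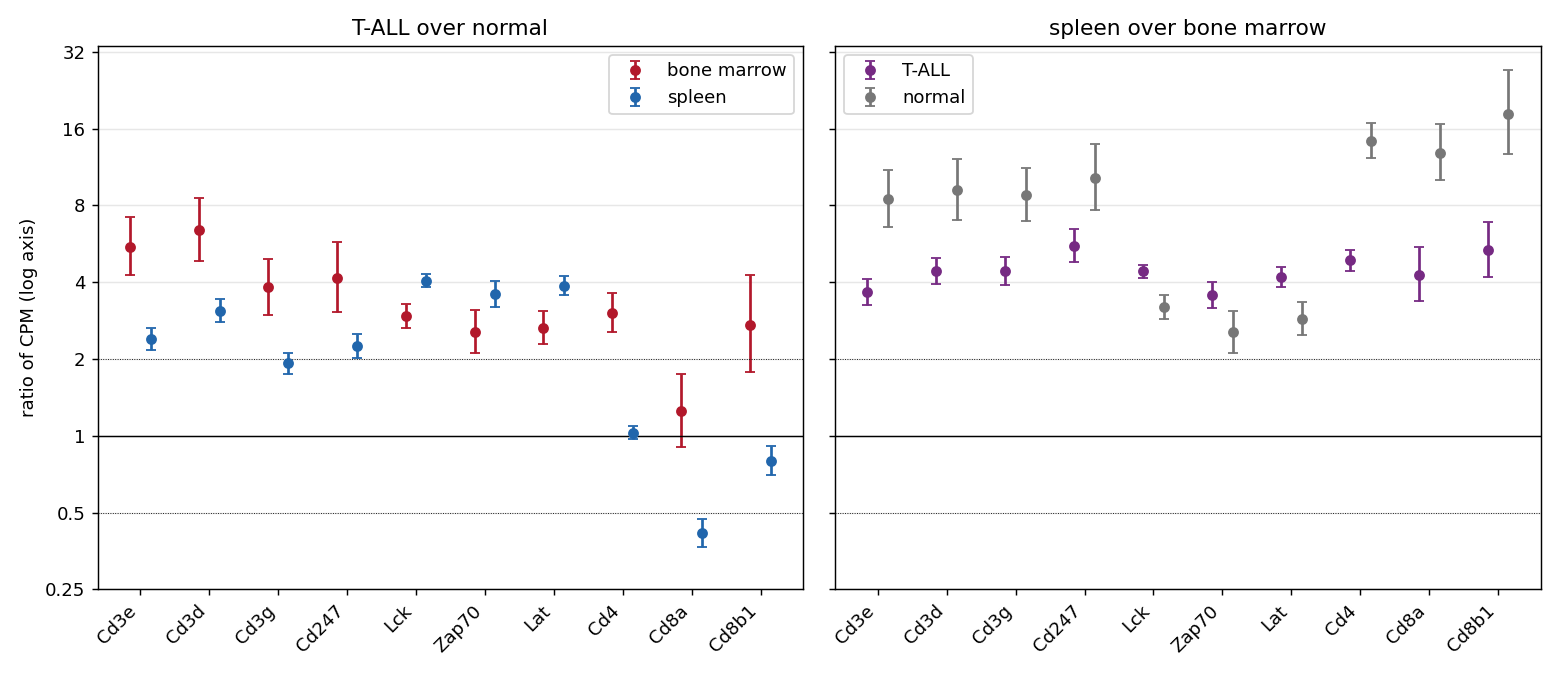
Ratio of CPM (log axis) of each gene, T-ALL over normal in each organ (left) and spleen over bone marrow in each condition (right), with exact 95% counting intervals; dotted lines mark 2-fold. On the left, Lck, Zap70 and Lat were further from 1 in spleen and the other genes in bone marrow except Cd8a; on the right, the T-ALL ratios lie between 3.57 and 5.56 and the normal ones between 2.55 and 18.3.

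Set against the reads of the CD3 chains, which takes out the scaling of the libraries, coreceptor reads were fewer in the T-ALL libraries of both organs. Per read of Cd3e, Cd3d and Cd3g together, Cd4 had 0.493 reads in T-ALL bone marrow and 0.830 in normal bone marrow, 1.69-fold lower (1.34 to 2.11). In spleen it had 0.578 in the T-ALL library and 1.36 in the normal library, 2.35-fold lower (2.17 to 2.55). Cd8a had 0.0820 reads per CD3 read in T-ALL bone marrow and 0.335 in normal bone marrow, 4.09-fold lower (2.88 to 5.79). In spleen Cd8a had 0.0845 in the T-ALL library and 0.491 in the normal library, 5.81-fold lower (5.07 to 6.66). Cd8b1 was lower by the same measure, 1.87-fold (1.21 to 2.91) in bone marrow and 3.03-fold (2.63 to 3.49) in spleen. These intervals come from the 4 read counts on a log scale.

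Lck, Zap70 and Lat went opposite ways per CD3 read in the 2 organs, a comparison added after their values were seen. Lck had 1.27 reads per CD3 read in T-ALL bone marrow and 2.21 in normal bone marrow, 1.74-fold lower (1.45 to 2.09). In spleen it had 1.35 in the T-ALL library and 0.803 in the normal library, 1.68-fold higher (1.55 to 1.82). Zap70 was 2.0-fold lower (1.58 to 2.53) per CD3 read in T-ALL bone marrow and 1.48-fold higher (1.30 to 1.68) in T-ALL spleen, and Lat 1.93-fold lower (1.57 to 2.38) and 1.60-fold higher (1.44 to 1.78). The normal libraries stood at the ends of the range, with normal bone marrow highest and normal spleen lowest for all 3 genes, and the T-ALL libraries lay between them. Basophil and mast cell genes, 7 of 7 with reads in each library, summed to 1367 CPM in T-ALL bone marrow, 2753 in normal bone marrow, 27.0 in T-ALL spleen and 40.8 in normal spleen. Genes of NK cells (10 of 10 with reads) summed to 209, 354, 166 and 294 CPM in the same order, and megakaryocyte genes to 224, 334, 8.23 and 11.6 CPM, with Gp1bb at 0 reads in normal spleen. The most abundant NK gene, Nkg7 in both bone marrow libraries, held 83.2, 209, 97.1 and 52.2 CPM of the NK sums. The NK sums thus do not rank the libraries by NK cell content. The part of basophils, mast cells, NK cells and megakaryocytes in the reads of Lck, Zap70 and Lat was not tested.

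**Figure D3:**
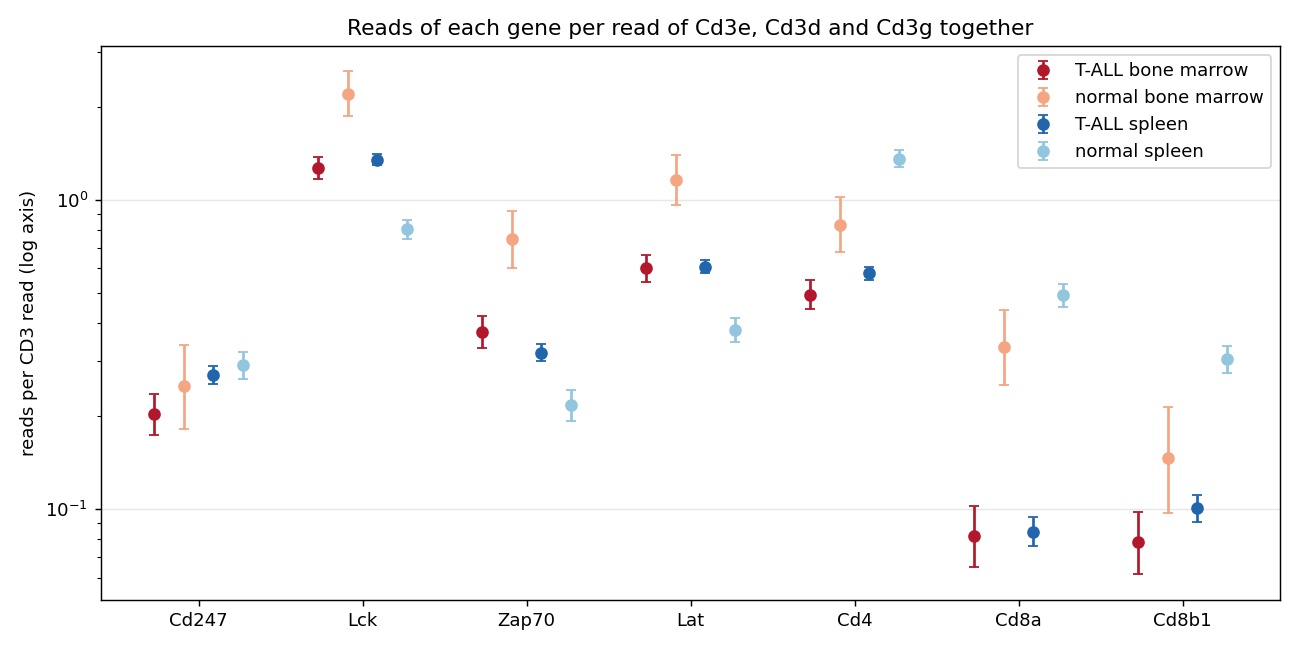
Reads of each gene per read of Cd3e, Cd3d and Cd3g together (log axis) in the 4 libraries, with exact binomial 95% intervals. The 2 T-ALL libraries lie close together for Lck (1.27 and 1.35), Lat (0.601 and 0.608) and Cd8a (0.0820 and 0.0845), while the normal libraries lie apart.

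All 10 genes were higher in spleen than in bone marrow, in T-ALL and in normal mice. In the T-ALL libraries the ratios of spleen to bone marrow lay within a narrow range, lowest for Zap70 at 3.57 (3.18 to 4.0) and highest for Cd247 at 5.56 (4.79 to 6.47), so that the highest was 1.56 times the lowest. In the normal libraries they ran from 2.55 for Zap70 (2.11 to 3.09) to 18.3 for Cd8b1 (12.7 to 27.2), with the highest 7.18 times the lowest. There the coreceptors stood at 12.9 to 18.3, the CD3 and zeta chains at 8.46 to 10.2, and Lck, Zap70 and Lat at 2.55 to 3.19. Over all genes measured, 5.44% were higher in spleen in the T-ALL libraries and 16.1% in the normal libraries. These comparisons share their libraries with those of T-ALL and normal. Xist was at 416 CPM in T-ALL spleen and 0.644 CPM in T-ALL bone marrow, and at 849 CPM in normal spleen and 861 CPM in normal bone marrow, and the part of the animals behind each library in these ratios was not tested. Between the T-ALL libraries, the reads per CD3 read of Lck, Lat and Cd8a differed by less than their counting intervals, and those of the other 4 genes outside the CD3 trio differed by at most 1.34-fold (1.14 to 1.58, Cd247). Between the normal libraries, Cd247 was the gene of these 7 whose interval held 1, at 1.17 (0.850 to 1.60).

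Per length, in the deposited RPKM, Lck stood first and Lat second in 3 libraries, and Cd4 first in normal spleen. In T-ALL spleen the order was Lck (286 RPKM), Lat (222), Cd3g (136), Cd3d (131), Cd3e (102), Cd4 (86.0), Zap70 (67.6), Cd247 (42.3), Cd8b1 (32.7) and Cd8a (12.4). In it, Cd3g and Cd3d were the neighbours that did not differ beyond their counting intervals. In T-ALL bone marrow the order began with Lck (63.7 RPKM) and Lat (52.0), and Cd3g (30.4), Cd3d (29.0) and Cd3e (27.4) followed, of which no 2 neighbours differed beyond their counting intervals. In normal bone marrow Lck (22.0 RPKM) and Lat (19.9) did not differ beyond their interval, and the other 8 genes were at 1.83 to 8.07 RPKM. In normal spleen Cd4 (82.5 RPKM) was followed by Cd3g (70.0) and Lck (69.5), which did not differ from each other, and by Lat (56.6). There neither Cd3e (42.3) and Cd3d (41.7) nor Cd3d and Cd8b1 (40.4) differed beyond their intervals, Cd8a was at 29.5 RPKM, and Zap70 (18.6) and Cd247 (18.5) came last.

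Other genes of receptor signalling did not move as a block. Of 53 pathway genes matched (receptor chains, proximal signalling, restraint and costimulation), 43 were measured in bone marrow, with 11 higher and 1 lower in the T-ALL library and a median log2 difference of 0.54, beside the 8.01% and 1.03% of all genes measured. In spleen 50 were measured, with 12 higher and 3 lower and a median of 0.13, beside 10.3% and 11.0% of all genes measured. Of 8 genes listed for the receptor chains, 7 had no matching symbol and were not analysed here. The matched gene, Ptcra, the partner of the beta chain in the pre-receptor of thymocytes, had 12 reads in T-ALL bone marrow and 1 in normal bone marrow, a ratio of 12.7 (1.88 to 543). In spleen it had 11 reads in the T-ALL library and 5 in the normal library, a ratio of 2.13 (0.682 to 7.82).

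Among 23 genes of proximal signalling, 20 were measured in bone marrow, with 4 higher and 0 lower, beside 8.01% and 1.03% of all genes measured. In spleen 22 were measured, with 3 higher and 2 lower. The spleen counts lie near the 10.3% and 11.0% of all genes measured, so the spleen genes named next are values and not a result on the list. In bone marrow the furthest were Rasgrp1, which links the receptor to Ras, at 82.6 CPM in the T-ALL library and 24.5 CPM in the normal library (3.38-fold, 2.92 to 3.92), the adaptor Fyb at 297 and 99.4 CPM (2.99-fold, 2.78 to 3.22) and the adaptor Skap1 at 23.5 and 9.74 CPM (2.41-fold, 1.89 to 3.10). In spleen they were Themis, a regulator of thymocyte selection, at 115 CPM in the T-ALL library and 18.5 CPM in the normal library (6.24-fold, 5.29 to 7.40), Skap1 at 97.0 and 36.6 CPM (2.65-fold, 2.33 to 3.02) and the adaptor Nck2 at 86.3 and 33.2 CPM (2.60-fold, 2.27 to 2.98). Malt1, a protease of lymphocyte signalling, was among the lower genes in T-ALL spleen (2.30-fold, 2.13 to 2.48). Fyb, higher in T-ALL bone marrow, had a spleen ratio of 0.687 (0.655 to 0.721), under 2-fold.

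Genes listed as restraining the receptor were measured in 18 of 19 cases in bone marrow, with 4 higher and 1 lower, and in 19 in spleen, with 5 higher and 1 lower. Over all genes measured, 8.01% were higher and 1.03% lower in bone marrow, and 10.3% and 11.0% in spleen. The 1 lower gene in each organ is a value and not a result on the list. In T-ALL bone marrow the surface proteins Cd5 (6.31-fold higher, 4.33 to 9.49) and Cd6 (4.49-fold, 3.35 to 6.10), which dampen receptor signals, led the list. Ptprc, the phosphatase CD45 of all white blood cells, was 2.25-fold higher (2.18 to 2.33) there, while its spleen ratio was 0.634 (0.621 to 0.647), under 2-fold. Ptprc stands in this list but is not a restraint alone. The lower gene in T-ALL bone marrow was Ubash3a (2.17-fold, 1.89 to 2.50). In T-ALL spleen the adaptor Sla2 was 2.97-fold higher (2.26 to 3.95), Ubash3a, which downregulates receptor signalling, 2.70-fold higher (2.21 to 3.31) and Cd6 2.57-fold higher (2.34 to 2.82). Of 10 costimulation genes, 5 were measured in bone marrow and 3 of these were higher, and 9 were measured in spleen and 4 of these were higher, with 0 lower in either organ. Sh2d1a, the adaptor SAP, was at 18.7 and 2.13 CPM in T-ALL and normal bone marrow (8.76-fold, 5.56 to 14.5), and at 79.9 and 7.16 CPM in T-ALL and normal spleen (11.2-fold, 8.64 to 14.6). Cd28, the main costimulatory receptor, was 3.47-fold higher (2.70 to 4.50) in T-ALL bone marrow and 3.97-fold higher (3.53 to 4.47) in T-ALL spleen. Cd2, an adhesion receptor, was 4.27-fold higher (3.47 to 5.29) in T-ALL bone marrow, and Cd27 3.23-fold higher (2.86 to 3.66) in T-ALL spleen.

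**Figure D4:**
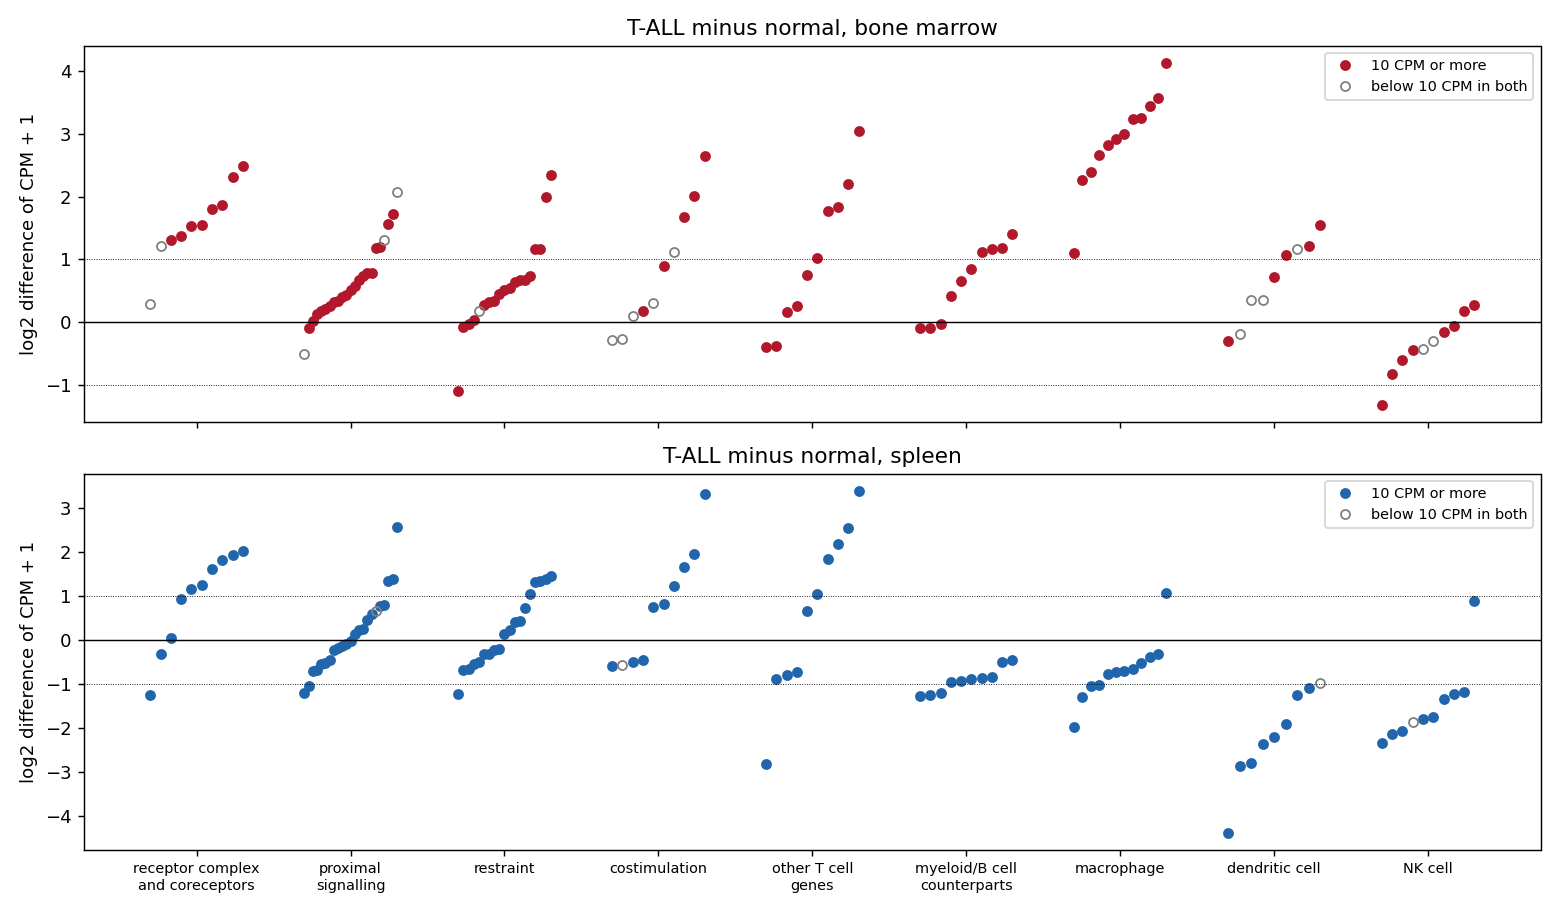
Log2 difference of CPM + 1, T-ALL minus normal, for the genes of 9 lists in bone marrow (top) and spleen (bottom), 1 point per gene sorted within its list; open points were below 10 CPM in both libraries and dotted lines mark 2-fold. In bone marrow the 12 macrophage genes were all higher with a median of 2.96, above the 1.68 of the receptor genes, and in spleen dendritic and NK cell genes lie mostly below the lower dotted line. Of all genes measured, 8.01% were higher in T-ALL bone marrow and 11.0% lower in T-ALL spleen.

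Part of the other T cell and thymocyte genes passed the size rule. Of all genes measured, 8.01% were higher and 1.03% lower in T-ALL bone marrow, and 10.3% and 11.0% in T-ALL spleen. Of 10 T cell genes outside the receptor, 5 were higher and 0 lower in T-ALL bone marrow, led by the transcription factors Tcf7 (8.56-fold, 7.42 to 9.90) and Bcl11b (5.33-fold, 3.89 to 7.46), with the surface protein Thy1 3.62-fold higher (3.22 to 4.08). In T-ALL spleen 5 were higher and 1 lower, with the transcription factor Lef1 10.6-fold (9.68 to 11.6) and Thy1 5.84-fold (5.47 to 6.24) higher. The lower gene was Cd7, a surface protein of T and NK cells, at 15.9 CPM in T-ALL spleen and 118 CPM in normal spleen. A count of 1 of 10 lower is near the share of all genes measured. Of 12 thymocyte and T-ALL genes, 10 were measured and 6 higher in bone marrow, and 10 measured and 9 higher in spleen, with 0 lower in either. Dtx1, Endou and Hes1 were furthest in bone marrow, at 41.1-fold (29.4 to 59.2), 11.4-fold (8.54 to 15.5) and 6.04-fold (4.68 to 7.91). Dtx1 does not mark the T-ALL libraries alone. It was at 146 CPM in T-ALL bone marrow, 452 CPM in T-ALL spleen and 320 CPM in normal spleen. Its spleen log2 difference of 0.50 was the smallest of the measured genes in this list and under 2-fold. Hes1 too was at 63.3 CPM in normal spleen, above its 42.9 CPM in T-ALL bone marrow and below its 139 CPM in T-ALL spleen. In spleen Heyl, a Notch target, had 569 reads in the T-ALL library and 1 in the normal library, a ratio of 551 (98.4 to 21789), and Endou was 32.5-fold (25.3 to 42.6) and Dntt, the polymerase of receptor gene rearrangement, 19.3-fold (12 to 32.9) higher.

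Myeloid and B cells signal through other kinases and adaptors, among them relatives of Lck, Zap70 and Lat. Of 10 such genes, 4 were higher and 0 lower in T-ALL bone marrow, led by the Src family kinases Fgr (2.66-fold, 2.49 to 2.84) and Lyn (2.26-fold, 2.14 to 2.39) and the signalling adaptor Tyrobp (2.26-fold, 2.15 to 2.39). In T-ALL spleen 0 were higher and 3 lower, namely Tyrobp (2.41-fold, 2.28 to 2.56), the phospholipase Plcg2 (2.36-fold, 2.22 to 2.52) and Lat2, the counterpart of Lat (2.35-fold, 2.06 to 2.69). The shares over all genes measured were 8.01% higher and 1.03% lower in bone marrow, and 10.3% and 11.0% in spleen. Syk, the counterpart of Zap70, stood per length at 6.01 times Zap70 in T-ALL bone marrow and 11.5 times in normal bone marrow, and at 1.29 times in T-ALL spleen and 8.31 times in normal spleen. Lat2 stood per length at 0.714 times Lat in T-ALL bone marrow and 1.18 times in normal bone marrow, and at 0.101 times in T-ALL spleen and 0.918 times in normal spleen.

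Dendritic cells can carry a coreceptor without the receptor, and most of their listed genes that were measured were lower in T-ALL spleen. Over all genes measured, 10.3% were higher and 11.0% lower in spleen, and 8.01% and 1.03% in bone marrow. Of 9 dendritic cell genes, 8 were measured in spleen and 8 were lower in the T-ALL library, with summed levels of 420 CPM in T-ALL spleen and 1369 CPM in normal spleen. The furthest were Cd209a (33.7-fold lower, 19.9 to 62.1), Clec9a (9.23-fold, 6.27 to 14.1) and Flt3 (7.19-fold, 6.21 to 8.36). In bone marrow 3 of 5 measured were higher, Clec10a at 3.12-fold (2.46 to 3.98), Cd209a at 2.41-fold (1.96 to 2.97) and Itgax at 2.13-fold (1.90 to 2.39), and the sums were 474 CPM in the T-ALL library and 301 CPM in the normal library. Plasmacytoid dendritic cell genes summed to 379 CPM in T-ALL spleen and 619 CPM in normal spleen, with 4 of 7 measured lower, among them Pacsin1 (2.96-fold, 2.28 to 3.87) and Siglech (2.71-fold, 1.84 to 4.07), and 1 higher, Ccr9 (3.73-fold, 3.07 to 4.56). In bone marrow they summed to 329 CPM in the T-ALL library and 207 CPM in the normal library, with Irf7 2.65-fold (2.37 to 2.97) and Ly6d 2.41-fold (1.97 to 2.95) higher. All genes of both lists had reads in each library. The part of dendritic cells in the levels of Cd4 and Cd8a was not tested.

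The counts of the next lists stand beside shares over all genes measured. These were 8.01% higher and 1.03% lower in T-ALL bone marrow, and 10.3% and 11.0% in T-ALL spleen. NK cell genes, which share Cd247, Lck, Zap70 and Lat with T cells, were lower in 8 of 9 measured in T-ALL spleen and higher in 0. The furthest were Tbx21 (5.79-fold lower, 4.25 to 8.05), Klrb1c (5.05-fold, 3.49 to 7.49) and Klrd1 (4.81-fold, 3.72 to 6.29). In T-ALL bone marrow 1 of 8 was lower, Nkg7 (2.51-fold, 2.31 to 2.73), and 0 were higher. Among 7 genes of basophils and mast cells, the lower ones in T-ALL bone marrow numbered 3, Cd200r3 (2.53-fold, 1.93 to 3.33), Prss34 (2.39-fold, 2.32 to 2.47) and Mcpt8 (2.17-fold, 2.07 to 2.27), and 0 of 2 measured differed 2-fold in spleen, where Prss34 was at 8.99 CPM in the T-ALL library and 13.1 CPM in the normal library. Of 6 megakaryocyte genes, 3 were measured in bone marrow and 0 in spleen, and none of the 3 differed 2-fold; Itga2b, with the most CPM, was at 168 and 236 CPM in T-ALL and normal bone marrow and at 4.87 and 7.83 CPM in T-ALL and normal spleen. B cell genes were higher in 1 of 8 in T-ALL bone marrow, Ms4a1 (3.39-fold, 2.71 to 4.26), which is near the share of all genes measured. They were lower in 4 of 8 in T-ALL spleen, namely Blk (2.37-fold, 2.17 to 2.60), Cd79b (2.21-fold, 2.10 to 2.33) and Cd79a (2.15-fold, 2.06 to 2.25) among others. Macrophage genes were higher in 12 of 12 in T-ALL bone marrow, led by Cd5l (19.2-fold, 15.7 to 23.8), Mertk (14.9-fold, 10.6 to 21.5) and C1qc (11.3-fold, 9.88 to 12.9). In T-ALL spleen 4 were lower, among them Lyz2 (3.92-fold, 3.74 to 4.11) and Fcgr1 (2.50-fold, 2.18 to 2.87), and 1 was higher, Cd5l (2.10-fold, 2.02 to 2.18).

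Profiles over the 4 libraries were compared with that of Cd3e among 8814 genes with a summed level of 50 CPM or more. The 10 receptor genes and predicted or clone-named genes were left out of this search. The nearest genes were Hes1, Cd2, Skap1, Dzip1 and Fam169b. The profile is each library's share of the summed CPM of a gene, and their Euclidean distances to Cd3e ran from 0.0298 to 0.0481. Cd3e had 15.7% of its summed CPM in T-ALL bone marrow, 2.84% in normal bone marrow, 57.4% in T-ALL spleen and 24.1% in normal spleen. The other CD3 chains lay at 0.0606 (Cd3g) and 0.0695 (Cd3d), Zap70 at 0.0866, Cd4 at 0.240, Cd8b1 at 0.323 and Cd8a, farthest of the set, at 0.508. Of Cd8a, 26.2% lay in T-ALL spleen and 62.8% in normal spleen. The distances are over 4 libraries and describe these libraries.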

How the data were processed

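RNA sequencing counts of 4 libraries, 1 per group, were used, with groups taken from the sample titles. Per the file headers, the authors deposited for each gene the count of uniquely mapped reads, a length, the coverage as a percent of that length, and the RPKM. The deposited RPKM was recomputed from counts, lengths and totals to within 9.15e-06%. Genes without a line were set to 0 reads. Per the labels' protocols, total RNA (RNeasy columns) went into Illumina libraries. The aligner, genome build, counting rule and strand setting: not given in the sources used here. Thus reads shared by overlapping or near-identical genes remain uncertain.

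TMM factors of 0.991 to 1.01 from edgeR 4.0.16 (run in R 4.3.3) scaled the library totals, and CPM was computed from the counts on these. Other values came from scipy 1.17.1, numpy 2.4.6 and pandas 2.3.3 under Python 3.11.15, and figures from matplotlib 3.10.9. Each read is worth 0.101 to 0.112 CPM. Ratios have exact binomial (Clopper-Pearson) 95% intervals. Intervals cover counting error only, not the spread between animals, and PCR copies make them too narrow even for that. The pseudocount of 1 CPM understates log2 differences of low genes.

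The receptor genes and all lists were chosen with earlier results of these data known. Named from each other list, in each T-ALL comparison, are up to 3 genes with the largest log2 difference past the size rule, or the most abundant gene where none passed; the 5 nearest profiles to Cd3e and Cd4 were added. Csf1r, Xist, Ddx3y, Malt1, Syk, Vcam1 and Gp1bb were named after their values were seen, as were the ratios of Lck, Zap70 and Lat to the CD3 chains. Some genes of the lists are not reported here by name. Other settings tried were scaling by total counts, by median of ratios and by TMM without genes of other cells, pseudocounts of 0.1 and 5, minimums of 0, 1 and 50 CPM, the RPKM with a minimum of 5, thresholds of 1.5-fold and 4-fold, and other denominators for the coreceptors.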

Additional observations from a re-analysis of the deposited data

Results flagged for a closer look

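Opposite directions in the organs were looked for among the receptor genes by counting interval and among the genes of the other lists by the size rule. With 1 library per group, none of these differences between organs was tested. Cd8b1 was 2.73 times its normal level in T-ALL bone marrow, from 80 and 31 reads, and 0.798 times its normal level in T-ALL spleen, from 424 and 514 reads, and both counting intervals exclude 1. Neither difference passed the size rule, since Cd8b1 was below 10 CPM in bone marrow and under 2-fold in spleen. Ubash3a, which restrains receptor signalling, was 0.460 times its normal level in T-ALL bone marrow (31.0 CPM, against 67.4 CPM in normal bone marrow) and 2.70 times in T-ALL spleen (40.8 CPM, against 15.1 CPM in normal spleen).

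By the size rule, another 8 list genes, none of them of the receptor pathway, were higher in T-ALL bone marrow and lower in T-ALL spleen. The adaptor Tyrobp was 2.26 times its normal level in bone marrow and 0.414 times in spleen. Among macrophage genes, Mertk was at 14.9 times in bone marrow and 0.487 times in spleen, Fcgr1 at 6.90 and 0.401 times, Vcam1 at 4.82 and 0.496 times and Lyz2 at 2.14 and 0.255 times. Among dendritic cell genes, Cd209a was at 2.41 times in bone marrow and 0.0297 times in spleen, Itgax at 2.13 and 0.267 times, and Irf7, of the plasmacytoid list, at 2.65 and 0.440 times. By counting interval, which was not the rule for the lists, pathway genes also stood on opposite sides of 1. Among them were Ptprc (2.25 times in bone marrow, 0.634 times in spleen), Fyb (2.99 and 0.687 times) and Nfatc2 (2.36 and 0.610 times).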

How the results depend on the processing

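The 240 recomputed log2 differences of single receptor genes (6 scalings, pseudocounts or units in 4 comparisons) all kept their direction, and 11 moved by more than their counting interval, each with the pseudocount of 5. Scaling shifted the median of all genes by at most 0.05 on the log2 scale. The coreceptor ratios to the CD3 chains stayed below 1 and within their intervals with Cd3e alone, with Cd247 added and in RPKM. Counts depended on the threshold and the minimum. In bone marrow, 3 receptor genes reached a minimum of 50 CPM and all 3 were higher, and 2 passed 4-fold. In spleen, 1 was higher and 0 lower at 4-fold. Without a minimum, 9 were higher in bone marrow. Of the pathway genes, 20 were higher in bone marrow at 1.5-fold, 3 at 4-fold and 3 with a minimum of 50 CPM, and 0 were lower at 4-fold. In spleen, 2 were higher and 0 lower at 4-fold, and 7 lower at 1.5-fold. Between spleen and bone marrow, 8 pathway genes were higher at 4-fold and 2 lower at 1.5-fold in the T-ALL libraries, and 15 were higher at 4-fold in the normal libraries. No library could be left out, because each group has 1. No paired analysis was possible for the same reason, and the labels carry no replicate numbers. Depth limits Cd8a and Cd8b1 most, with 31 to 84 reads in bone marrow.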

Other observations

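Cell cycle genes in these libraries followed the organ and the condition in another way than the receptor genes. Of 15 such genes, 15 were measured in each organ, and 15 were higher in T-ALL spleen, beside 10.3% of all genes measured. Cdk1 was at 6.79-fold (5.76 to 8.05), Ccnb1 at 5.91-fold (5.03 to 6.98) and Top2a at 5.06-fold (4.77 to 5.37). In bone marrow 0 passed 2-fold, beside 8.01% of all genes measured that were higher and 1.03% that were lower. There Top2a was at 599 CPM in the T-ALL library and 979 CPM in the normal library. Their summed level was 2789 CPM in T-ALL bone marrow, 4497 in normal bone marrow, 3157 in T-ALL spleen and 783 in normal spleen, so that normal bone marrow was the highest of the 4 libraries for these genes and the lowest for each of the 10 receptor genes.

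The nearest profiles to Cd4 were sought among the same 8814 genes, which leave out the 10 receptor genes, so they could only be other genes. They were Clec1b, Sidt1, Tgm1, Hebp1 and Acp5, at distances from 0.0190 to 0.0515, against 0.0831 for Cd8b1, the nearest of the receptor set. Acp5, the tartrate-resistant acid phosphatase, was at 89.3 CPM in T-ALL bone marrow, 32 in normal bone marrow, 297 in T-ALL spleen and 311 in normal spleen, and Hebp1, a haem-binding protein, at 21.2, 6.80, 88.0 and 76.8 CPM in the same order.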
